A study of Mus musculus with 2 samples.

Results

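The Rab family of small GTPases was described on 2 arrays labelled as bEnd3, a line of mouse endothelial cells whose source was microvessels of the brain cortex. Rab genes were taken as the probe sets annotated to exactly 1 gene whose symbol is Rab followed by a number and, in some cases, a letter. This gave 132 probe sets for 59 genes, of 18193 genes in all. The line is of BALB/c strain and was transformed with polyoma middle T antigen. The cells were infected with retrovirus carrying a Smad4-siRNA or a control-siRNA and selected with puromycin, per the labels and the series' design text. Total RNA from 2 infections was pooled for each group and hybridised to 1 Affymetrix array per group. With 1 array a group, no difference has a replicate check and no test between the groups was possible. The precision of each value is limited by having 2 arrays.

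Rab proteins are membrane switches. They bind GTP in the active state and GDP in the inactive state, carry lipid groups at the C-terminus, and mark the identity of an organelle by recruiting tethers, motors and sorting proteins. Exchange factors load them with GTP, GTPase-activating proteins turn them off, and GDI and escort proteins carry them through the cytosol. In endothelial cells they serve receptor recycling, junction turnover and the release of Weibel-Palade bodies, the storage granules for von Willebrand factor and P-selectin.

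The labels did not hold for the targeted gene, and on 1 array most markers of the labelled cell type were low. Smad4 had a signal of 1165 in its brightest of 3 probe sets where the label reads Smad4-siRNA, and of 916 on the other array (log2 ratio 0.35, and -0.07 as deposited). Therefore "higher" and "lower" below state the direction on the first of these arrays and not a response to loss of Smad4. Of 11 endothelial markers that reached the detection floor, 10 were at least 2-fold lower, and Vwf was below the floor on both arrays. On the array labelled Smad4-siRNA the endothelial genes Pecam1, Cldn5, Esam and Emcn had signals of 1.46, 1.33, 3.06 and 4.68, none of which reached the floor. Their signals with Control-siRNA lay between 1646 and 3092. In all, 7 of the markers were above the floor on the Control-siRNA array alone, whereas Eng had 508 and 748. Summed over the 12 markers, the signal was 625 against 15761. Of 8 fibroblast markers that reached the floor, 7 were at least 2-fold higher, with a summed signal over 9 markers of 27929 against 3419. Of 5 pericyte and smooth muscle markers that reached it, 4 were higher. Xist had a signal of 4476 against 20.7, and the Y-linked genes Eif2s3y of 0.349 against 324, Kdm5d of 4.69 against 122 and Uty of 4.03 against 112. The array labelled Smad4-siRNA thus had the pattern of female cells, with Xist and without Y-linked genes, and the Control-siRNA array the reverse. A difference between the siRNAs cannot be told apart here from a difference between the cells on the 2 arrays, and this holds for every Rab value below. The part of the markers in the Rab values was not tested, and fewer cells of a type cannot be told apart from less RNA per cell in bulk RNA.

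Signals are given after quantile normalization, first on the array labelled Smad4-siRNA and then on the Control-siRNA array. The floor is the median of each array, a signal of 22.8. Each gene is represented by 1 probe set, that with the highest log2 signal on average. Where 1 side lay below the floor, the fold is against the floor and is a lower bound, written "at least". Between probe sets of the same gene, log2 ratios had a pooled SD of 0.39 in 24 Rab genes and of 0.47 in 4546 genes of all kinds. This SD is used here in place of a technical error and is called the technical SD below. An error common to all probe sets of a gene, such as one of the RNA pool or the infection, is not part of it. It therefore does not measure the full error of a difference between the arrays.

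The upstream sequences shown here belong to Rab genes that differed at least 2-fold between the arrays, namely 3 of the higher genes (Rab34, Rab3d and Rab40b) and both lower genes. They were chosen after the values had been seen, as were the motifs. They come from RefSeq on GRCm38.p6 and run 5′ to 3′ on the gene's strand, up to the first base before the gene's annotated span. Capitals mark the Smad box GTCTG or its complement CAGAC and the GC-rich Smad element GGCGCC. The windows are chr11:78188177-78188426 (plus strand) for Rab34, chr9:21918200-21918433 (minus) for Rab3d, chr11:121388252-121388501 (minus) for Rab40b, chr5:115631737-115631903 (plus) for Rab35 and chr7:100607336-100607574 (plus) for Rab6a.
Rab34: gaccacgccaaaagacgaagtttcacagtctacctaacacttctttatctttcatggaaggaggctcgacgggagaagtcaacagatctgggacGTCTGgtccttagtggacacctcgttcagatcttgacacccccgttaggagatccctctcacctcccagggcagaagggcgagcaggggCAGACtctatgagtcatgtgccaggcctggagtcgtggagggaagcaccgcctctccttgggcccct
Rab3d: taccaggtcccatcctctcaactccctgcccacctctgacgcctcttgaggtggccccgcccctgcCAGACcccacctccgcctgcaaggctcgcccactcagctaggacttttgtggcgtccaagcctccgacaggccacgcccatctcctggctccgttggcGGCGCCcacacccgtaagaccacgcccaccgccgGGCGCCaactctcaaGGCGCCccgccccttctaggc
Rab40b: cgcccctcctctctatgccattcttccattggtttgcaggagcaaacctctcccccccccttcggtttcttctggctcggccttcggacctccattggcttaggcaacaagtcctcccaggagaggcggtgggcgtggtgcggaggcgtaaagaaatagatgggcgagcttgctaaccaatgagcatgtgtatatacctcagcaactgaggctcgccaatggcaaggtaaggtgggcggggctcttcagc
Rab35: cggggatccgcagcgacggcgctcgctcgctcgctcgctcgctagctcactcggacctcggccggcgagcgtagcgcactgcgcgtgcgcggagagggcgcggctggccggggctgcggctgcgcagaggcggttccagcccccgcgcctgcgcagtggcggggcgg
Rab6a: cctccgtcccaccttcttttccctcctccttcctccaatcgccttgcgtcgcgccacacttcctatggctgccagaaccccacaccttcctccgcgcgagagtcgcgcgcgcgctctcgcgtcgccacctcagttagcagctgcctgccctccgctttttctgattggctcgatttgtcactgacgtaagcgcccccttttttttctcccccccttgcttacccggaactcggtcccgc

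The Rab34 stretch held 2 Smad boxes and no GC-rich element. The Rab3d stretch held 1 Smad box and 3 GC-rich elements. The stretches of Rab40b, Rab35 and Rab6a held neither motif. The Rab35 stretch had the highest GC content of the 5, 79.0%, with 31 CpG dinucleotides in 167 bases, and the Rab34 stretch the lowest, 56.4%, with 10 CpG in 250 bases. A match or its absence describes letters in these windows only.

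Of the 59 Rab genes, 41 reached the floor on both arrays and 13 on neither. For 2 of them, Rab7b and Rab40b, it was reached only under the Smad4-siRNA label, and for 3, Rab25, Rab27a and Rab27b, only on the control array. A difference of at least 2-fold was seen in 10 of the 46 that reached it on 1 or both, with 8 higher (17.4%) and 2 lower (4.35%), which left 36 between. Over all 11581 genes treated the same way, 16% were higher and 15.8% lower by that measure. Both directions together made 21.7% of Rab genes and 31.7% of all genes. Of the 41 Rab genes on both arrays, 6 were higher (14.6%) and 2 lower (4.88%), together 19.5%. Over all genes on both arrays these shares were 12.6%, 15% and 27.7%. The share of higher Rab genes was thus near that of all genes. The share of lower ones rested on the scaling. For the values as deposited, 7 Rab genes were higher and 7 lower, 15.2% each, against 15.2% and 19.8% of all genes. The median log2 ratio of the 41 Rab genes was 0.03 after quantile normalization and -0.30 as deposited, and that of all 9479 genes measured on both arrays was -0.15 and -0.33. Of the 41, 21 were above 0 and 20 below, and 4 (Rab4a, Rab8a, Rab11b and Rab28) changed sign as deposited.

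**Figure D1:**
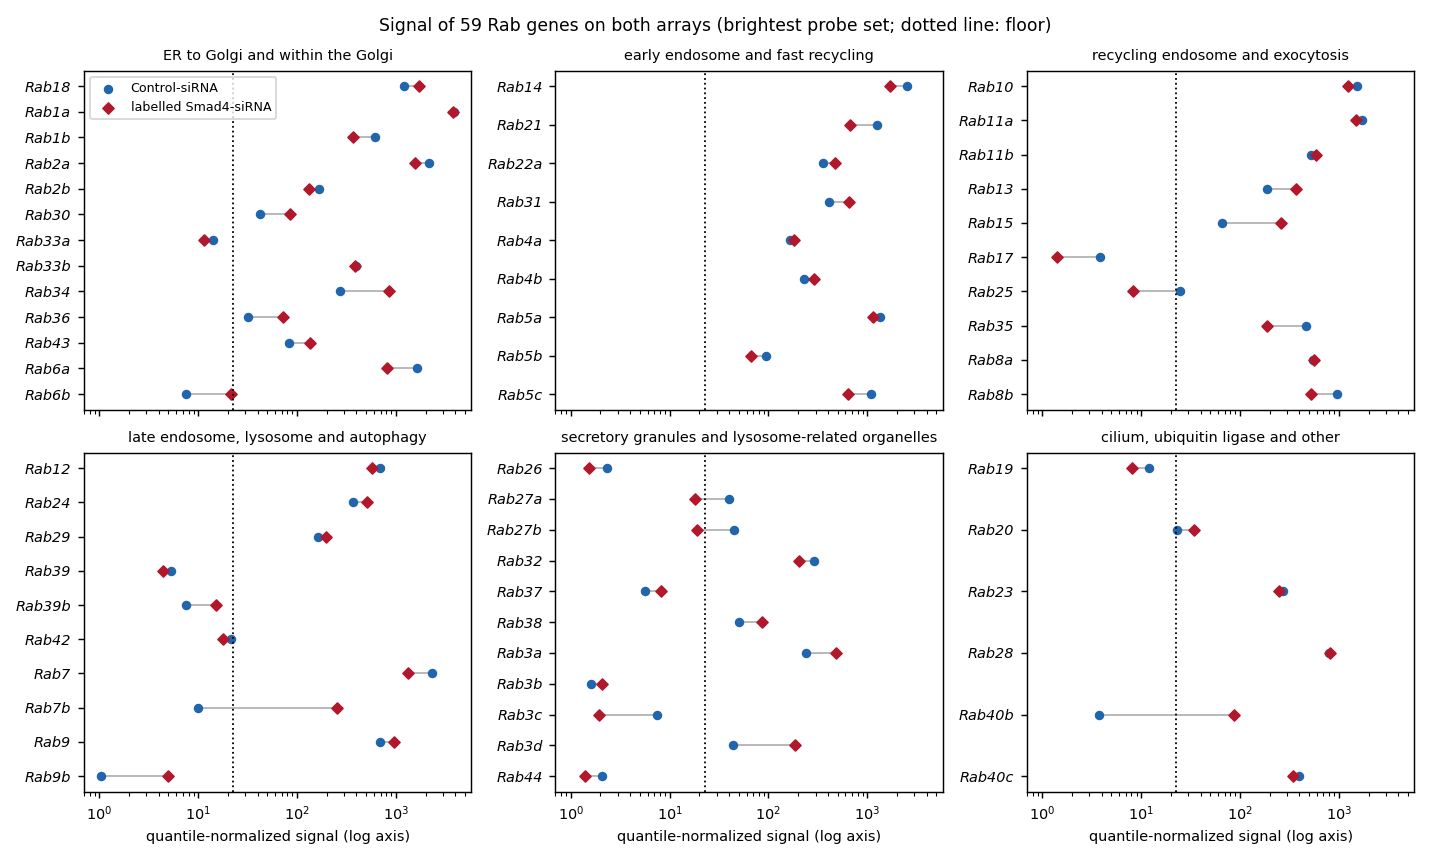
Quantile-normalized signal (log axis) of the brightest probe set of each of 59 Rab genes, in 6 panels by compartment. Circles are the Control-siRNA array, diamonds the array labelled Smad4-siRNA, and the dotted line is the floor of 22.8. Most pairs of points lie close together, and among genes that reached the floor the widest gaps are those of Rab7b and Rab40b.

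The SD of log2 ratios was 0.79 over the 41 Rab genes and 1.10 over all genes measured on both arrays. In log2 terms the Rab genes ran from -1.29 to 2.10, with an interquartile range from -0.47 to 0.57. The 24 Rab genes with a mean signal at least 16 times the floor (364) included 1 higher and 1 lower gene, together 8.33%, against 21.6% of the 3076 genes of that signal. Apart, 10.5% of these were higher and 11.1% lower. As deposited, the bright Rab genes Rab1b (-1.10), Rab5c (-1.17), Rab7 (-1.12), Rab8b (-1.24) and Rab21 (-1.31) were also past 2-fold lower. The Rab share of 8.33% thus rested on the scaling. No share of all genes of that signal is given as deposited, so the contrast with all genes is not read on that scale. This signal limit was set after the values had been seen. Among the 22 Rab genes under it that reached the floor, 7 were higher (31.8%) and 1 lower (4.55%), together 36.4%. Of the 8504 genes of all kinds under it, 17.9% were higher and 17.5% lower, together 35.4%, so that below the limit the share past 2-fold was near that of all genes. Of the 41 genes, 19 lay within the technical SD of 0.47 from 0. Another 5 lay within 0.1 (log2) of the 2-fold line, so their side of it is not settled. These were Rab21 (-0.91), Rab6a (-1.02), Rab13 (0.99), Rab30 (1.001) and Rab3a (1.02).

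**Figure D2:**
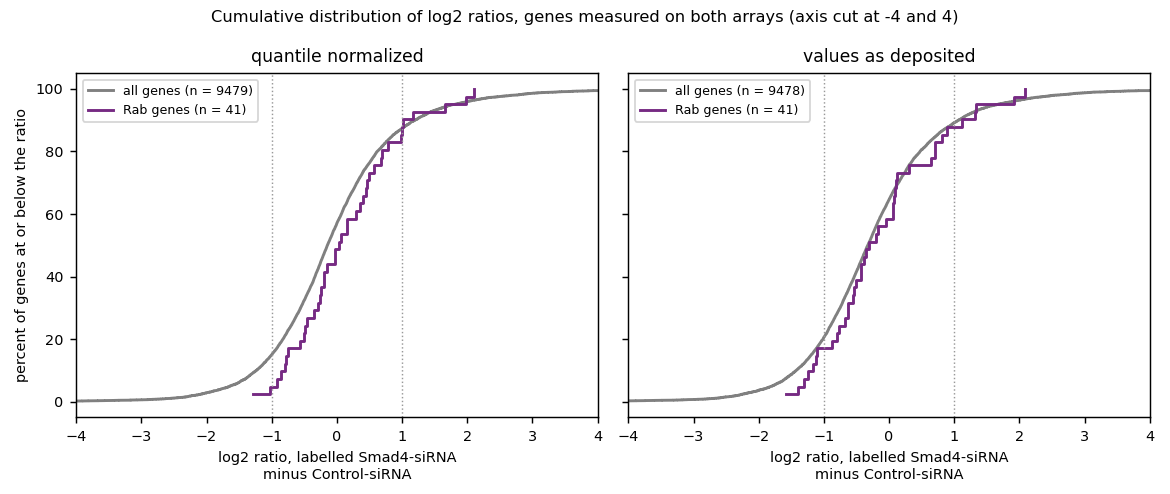
Cumulative percent of genes by log2 ratio (labelled Smad4-siRNA minus Control-siRNA), for all genes in grey and Rab genes in purple, after quantile normalization (left) and as deposited (right). Dotted lines mark 2-fold. The Rab medians are 0.03 and -0.30, and those of all genes -0.15 and -0.33.

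Rab genes of the route from endoplasmic reticulum to Golgi included both directions. Of 13, 11 reached the floor on both arrays, of which 3 were higher (27.3%), 1 was lower (9.09%) and 7 lay between. Their median log2 ratio was -0.03. Over all genes on both arrays, 12.6% were higher and 15% lower. With 11 genes and no test, nothing is read from these counts. Rab34, which acts at the Golgi and in the assembly of primary cilia, had signals of 852 and 271, a 3.14-fold difference (log2 ratio 1.65). Its other probe set gave 1.63, and all 9 alternative settings kept the call. Rab36, the closest relative of Rab34, had 72.3 and 32.3 (2.24-fold). A dimmer Rab36 probe set had 99.8 against 19.1, the latter below the floor, so that it too was higher. Rab30, a Golgi Rab, had 85.4 and 42.7 (2.002-fold), and its other probe set 63.0 against 10.2, below the floor. All of these genes were higher on the array labelled Smad4-siRNA, in each probe set that reached the floor on either array.

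Rab6a, which directs retrograde traffic through the Golgi, was the lower member of this group. Its brightest probe set had 814 and 1655 (2.03-fold lower), but log2 ratios in its other probe sets were -0.64 and 0.01. A difference of Rab6a was thus seen in some of its probe sets and not in another. Its neuronal paralog Rab6b was below the floor on both arrays, with 21.7 and 7.56. Rab1a, which moves cargo from endoplasmic reticulum to Golgi, had 3771 and 3861. Its log2 ratio was -0.03, whereas Rab1b had 369 and 618, a log2 ratio of -0.74, which was past 2-fold as deposited (-1.10). Rab2a, which works at the same step in the reverse direction, had 1552 and 2144 in its brightest probe set (-0.47). The other 5 of its probe sets measured on both arrays lay from 0.01 to 0.28, on the other side of 0. Rab18, of lipid droplets and endoplasmic reticulum, had 1718 and 1221 (0.49), and Rab33b 387 and 396. Rab43 had 134 and 83.3 (0.69) in its brightest probe set, but -0.23 and 0.07 in its other probe sets.

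All 9 Rab genes of early endosomes and fast recycling reached the floor on both arrays, and none was past 2-fold, against 27.7% of all genes on both arrays. With 9 genes and no test, nothing is read from this. Their median log2 ratio was -0.24. The 3 Rab5 genes, which drive early endosome fusion, were all below 0. Rab5a had signals of 1149 and 1357 (log2 ratio -0.24), Rab5b 66.8 and 93.5 (-0.48), and Rab5c 635 and 1094 (-0.78). Rab21, which takes part in integrin endocytosis, had 672 and 1265 (-0.91), and its other probe set was past 2-fold at -1.36. Rab14, between endosomes and Golgi, had 1696 and 2520 in its brightest probe set (-0.57), but its 5 measured probe sets ran from -0.57 to 0.57. On the other side of 0 stood Rab31, with 660 and 414 (0.67). Its relative Rab22a had 476 and 359 (0.41) in its brightest probe set, but 0.11, -0.17 and -0.53 in its other probe sets. The fast recycling genes Rab4a and Rab4b had log2 ratios of 0.15 and 0.35. As deposited, Rab5c (-1.17) and Rab21 (-1.31) were past 2-fold, so their place between the lines depended on the normalization.

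Recycling endosome and exocytosis genes held 1 higher and 1 lower member among the 9 that reached the floor (11.1% each). Of all genes that reached it, 16% were higher and 15.8% lower, and with 9 genes nothing is read from this. Rab15, an endosomal Rab also found on Weibel-Palade bodies, had 259 and 65.4, a 3.96-fold difference, from its only probe set. That probe set carries the suffix that marks a match to several transcripts of 1 gene. Rab35, which controls fast recycling and cortical actin, had 189 and 462 (2.45-fold lower), also from its only probe set. The Rab35 call was kept in all 9 alternative settings, with log2 ratios from -1.58 to -1.18. Rab13, a Rab of tight junction assembly, had 370 and 187, just inside the 2-fold line at 1.98-fold. Rab8b had 524 and 950 (log2 ratio -0.86, and past 2-fold as deposited at -1.24), whereas Rab8a had 565 and 544 (0.06). Rab11a, the main Rab of the recycling endosome, had 1508 and 1730 (-0.20) in its brightest probe set and -0.89 in the other. Rab11b had 590 and 528 (0.16) in its brightest probe set and -0.50 in the other measured on both arrays. Rab10, of basolateral and glucose transporter traffic, had 1247 and 1523 (-0.29). The epithelial gene Rab17 was below the floor on both arrays. Rab25, another epithelial Rab, had 8.32 and 24.5, barely above the floor on the Control-siRNA array alone. Of 5 epithelial markers, Cdh1, Krt8 and Krt18 were below the floor on both arrays. Epcam had 81.7 and 8.54 and Krt19 39.3 and 1.51.

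Among late endosome, lysosome and autophagy genes, Rab7 and its relative Rab7b differed in opposite directions. Rab7b, which acts in transport from endosomes to the Golgi, had 251 and 9.95, and was at least 11.04-fold higher because its signal on the Control-siRNA array was below the floor. That bound moved with the floor, from a log2 of 0.98 with a floor at the 75th percentile to 4.66 with one at the 25th. A further Rab7b probe set had 122 and 5.53, and the third was below the floor on both arrays. Rab7, the Rab of late endosomes, had 1339 and 2325, a log2 ratio of -0.80, with -0.76 in its other probe set. As deposited Rab7 was past 2-fold at -1.12. Of the 6 genes of this group that reached the floor, Rab7b was the only one past 2-fold (16.7%), against 31.7% of all genes. With 6 genes and no test, nothing is read from this. Rab9, of transport from late endosomes to the Golgi, had 953 and 689 (0.47), Rab24 506 and 372 (0.45), and Rab29, a partner of the kinase Lrrk2, 198 and 162 (0.29). Rab12 had 575 and 686 (-0.25), but 0.93 in its other probe set. Rab9b, Rab39, Rab39b and Rab42 were below the floor on both arrays.

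Genes of secretory granules and lysosome-related organelles numbered 11, of which 5 did not reach the floor on either array (Rab3b, Rab3c, Rab26, Rab37 and Rab44). Rab3d, a Rab of granule membranes, had 186 and 43.5, a 4.28-fold difference. Its other measured probe sets were also above 0, at 1.29 and 0.44, and a further one was below the floor on both arrays. Without suffixed probe sets, which can match several transcripts or genes, Rab3d had a log2 ratio of 0.44 and was no longer past 2-fold. Rab3a, known from synaptic vesicles, had 483 and 239 (2.02-fold) in a probe set with a suffix for shared sequence, and 92.8 and 48.0 (log2 ratio 0.95) in the other. None of the 5 neuron and oligodendrocyte markers with a probe set reached the floor on either array. Rab27a, which docks granules at the plasma membrane, had 17.9 and 39.7, and Rab27b 19.1 and 44.7. Both were above the floor on the Control-siRNA array alone, with bounds of at least 1.74-fold and 1.96-fold lower.

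Rab32 and Rab38, the paired Rabs of melanosomes and other lysosome-related organelles, lay on opposite sides of 0. Rab32 had 201 and 286 (log2 ratio -0.51). Rab38 had 86.7 and 50.3 (0.78) in a suffixed probe set, and 108 against 10.0, below the floor, in the other, which made it at least 4.75-fold higher there. Of the melanocyte markers, Tyr, Dct and Mlana were below the floor on both arrays, Pmel had 20.4 and 43.2, the first below the floor, and Mitf had 292 and 68.4. Their part in these values was not tested.

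The last group joins Rab genes with other roles. Rab40b, which carries a SOCS box and forms ubiquitin ligases with cullin 5, had 87.3 and 3.795, and was at least 3.83-fold higher. Over the alternative settings its log2 bound or ratio ran from 0.80, with the median of probe sets, to 3.96. Its other probe set was below the floor on both arrays, at 18.04 and 0.588. Its paralog Rab40c had 343 and 395 (log2 ratio -0.20). Rab23, an inhibitor of Hedgehog signalling at the cilium, had 246 and 274, and its 3 probe sets ran from -0.15 to 0.24. Rab28 had 810 and 794, Rab20, of phagosomes, 34.6 and 23.3, and Rab19 was below the floor on both arrays. Apart from Rab40b no gene of this group was past 2-fold. Of all genes that reached the floor on 1 or both arrays, 31.7% were, and with so few genes nothing is read from this.

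**Figure D3:**
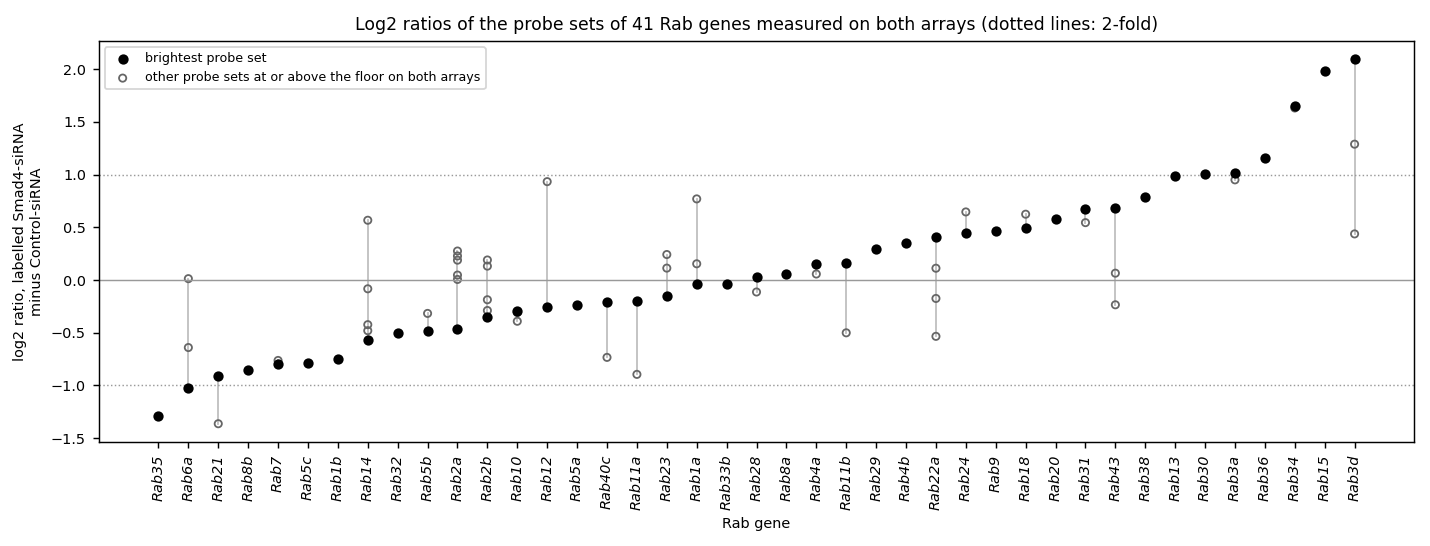
Log2 ratios (labelled Smad4-siRNA minus Control-siRNA) of all probe sets that reached the floor on both arrays, for 41 Rab genes ordered by the brightest probe set (filled). Open points are other probe sets of the same gene and dotted lines mark 2-fold. Rab6a, Rab14 and Rab12 have probe sets on both sides of 0, whereas those of Rab34 and Rab7 lie on top of each other.

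Of 24 Rab genes with several probe sets measured on both arrays, 13 had 1 sign throughout and 11 had both. Of all 83 Rab probe sets measured on both arrays, 8 passed 2-fold on the higher side and 3 on the lower. These counts have no share over all genes or probe sets beside them, so nothing about the Rab family is read from them. As deposited, more Rab probe sets passed 2-fold on the lower side, among them both of Rab7 (-1.12 and -1.15). Rab12 had the widest spread (SD 0.84 over 2 probe sets), followed by Rab3d (SD 0.83 over 3). The SD was 0.01 for Rab34 and 0.02 for Rab7, over 2 probe sets each.

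Paralogs were compared by their log2 ratios, since signals of different probe sets are not comparable as levels. Of 20 pairs, 11 had both genes measured on both arrays. In 8 of them the paralogs lay on the same side of 0, and in 3 on opposite sides. Rab5a, Rab5b and Rab5c enter as pairs with each other, all on the same side, so the pairs are not independent. No share for other gene pairs stands beside these counts, and no likeness of paralogs is read from them. Taking 0.67 as the SD of a difference between genes, from the technical SD, 7 pairs differed by less and 4 by more. The 4 were Rab32 and Rab38 (a difference of 1.29), Rab3a and Rab3d (1.08), Rab8a and Rab8b (0.91) and Rab1a and Rab1b (0.71). Rab2a and Rab2b differed by 0.12 and Rab4a and Rab4b by 0.20. As deposited, Rab2a minus Rab2b was -0.29 and Rab4a minus Rab4b was -0.13. With the median of probe sets Rab2a had 0.19 and Rab2b -0.24, so which pair is closest rested on probe set and scaling. The other 9 pairs had a side below the floor and were not ranked. Among them, Rab7b and Rab40b were higher while their paralogs Rab7 and Rab40c lay below 0. The genes of a pair can share probe sequence, and these differences have no replicate check.

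**Figure D4:**
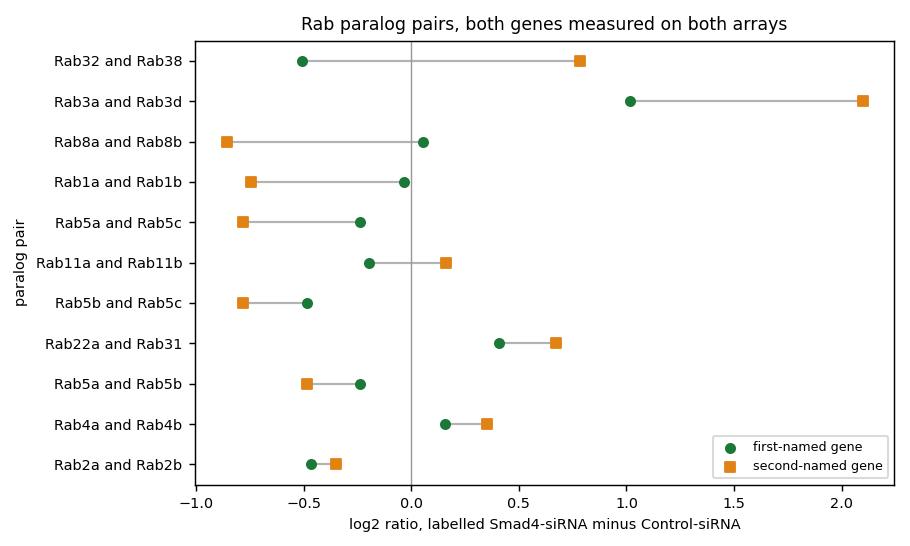
Log2 ratios (labelled Smad4-siRNA minus Control-siRNA) of both genes of 11 Rab paralog pairs, ordered by the size of their difference. Circles are the first-named gene and squares the second. By brightest probe set after quantile normalization, Rab32 and Rab38 are farthest apart, by 1.29, and Rab2a and Rab2b closest, by 0.12. With the median of probe sets Rab2a has 0.19 and Rab2b -0.24.

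Promoter windows of the Rab family were rich in CpG. Of the 59 genes, 48 matched the RefSeq table of windows from 250 bases before to 50 bases after a transcript's start, with 60 windows in all. Their median GC content was 61.2% and their median CpG count 19.5, against 52.7% and 7 over all 32851 windows. Those windows cover 27025 genes, more than the 18193 on the arrays, and were not limited to genes that reached the floor. The GC box GGGCGG, searched on both strands with its complement CCGCCC, was in 68.3% of Rab windows and 35.7% of all windows. The windows of the 10 matched Rab genes below the floor on both arrays had a median of 9.5 CpG. Those of the 31 genes between the 2-fold lines had a median of 23, those of the 5 higher genes 18.5 and those of both lower genes 36. The 5 higher genes had 10 windows, of which 4 belonged to Rab15.

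Smad motifs were about as common in Rab windows as in others. The Smad box GTCTG or CAGAC was in 48.3% of Rab windows and 49.6% of all windows, and GGCGCC, which reads alike on both strands, in 8.33% and 11.9%. The E-box CACGTG, also its own complement, was in 10.0% and 7.15%. Of 10 windows of 5 higher Rab genes, 7 held a Smad box and 1 held GGCGCC. The 7 were the 4 windows of Rab15, both of Rab34 and that of Rab3d, and windows of Rab3a and Rab40b held none. Windows of 1 gene are thus counted more than once, and no enrichment is read from this. Of the 2 windows of lower genes 1 held a Smad box, in the part that is not shown. The palindrome GTCTAGAC, which contains no other motif searched here, was in 1 of 60 Rab windows, against 0.213% of all windows. It lay 79 bases before the start in 1 of 4 windows of Rab15, inside the span of the gene, at chr12:76813917-76813946 (minus strand, GRCm38.p6) in the 30 bases shown here with the palindrome in capitals.
Rab15: atcaggattctGTCTAGACtagggtaccgt

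Genes that control Rab proteins differed between the arrays at shares near those of all genes. Over all genes that reached the floor, 16% were higher and 15.8% lower. Of 38 exchange factors that reached it, 4 were higher (10.5%) and 6 lower (15.8%), with a median log2 ratio of -0.08. Rab3il1, an exchange factor for Rab8, had 169 and 38.7 (4.37-fold), Rin2, which acts on Rab5, 269 and 71.3 (3.78-fold), and Dennd2a at least 4.68-fold more on the array labelled Smad4-siRNA. Als2cl was at least 5.98-fold lower, Mon1a, part of the Rab7 exchange complex, 2.54-fold and Dennd3, an exchange factor for Rab12, 2.24-fold lower. Mon1a had signals of 61.3 and 156, and its partner Ccz1 511 and 953 (-0.90), but its paralog Mon1b lay above 0, at 0.56 and 0.64 in its measured probe sets. Of 36 GTPase-activating proteins, 5 were higher and 5 lower (13.9% each, median -0.04). Tbc1d2b was 7.81-fold, Tbc1d16 3.08-fold and Rabgap1l 2.81-fold higher. Tbc1d2, which inactivates Rab7, was at least 4.36-fold lower, Sgsm3 2.84-fold lower and Tbc1d9 at least 2.81-fold lower.

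Effectors, which bind Rab proteins in the GTP state, also had shares near those of all genes. Of 43 that reached the floor, 7 were higher (16.3%) and 8 lower (18.6%), against 16% and 15.8% of all genes. Their median log2 ratio was 0.07. Mical1, an actin-oxidising enzyme that binds Rab1 and Rab8 family members, had 189 and 37.0 (5.11-fold), and Ehbp1, a partner of Rab8 and Rab10, 244 and 67.6 (3.61-fold). Vps41, a subunit of the lysosomal HOPS tether, was 3.09-fold higher, but of its fellow subunits Vps18 was 2.39-fold lower and Vps11 (-0.71) and Vps39 (-0.52) lay below 0. The exocyst subunit Exoc6, which binds Rab11, had 9.39 and 181, at least 7.96-fold lower. Rph3al, which binds Rab27 and Rab3 on granules, was 6.12-fold lower and Rufy1, a partner of Rab4 and Rab14, 3.78-fold lower. Of 7 GDI, escort and prenylation genes none was higher and 1 was lower (14.3%), and with 7 genes nothing is read from this. Chml, an escort protein, was at least 2.81-fold lower, while Gdi2 had 2593 and 2156 (0.27) and the prenylation subunits Rabggta and Rabggtb had -0.79 and -0.33.

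Weibel-Palade body genes were found in part. Rab3b, Rab37, Sytl4, Myrip and Vwf were below the floor on both arrays. Of the 9 that reached it, 3 were higher (33.3%) and 2 lower (22.2%), against 16% and 15.8% of all genes. With 9 genes and no test, nothing is read from this. Rab3d and Rab15 were higher by the folds given above, and Angpt2, a stored ligand of the receptor Tek, was 18.02-fold higher. Selp, for P-selectin, had 23.0 and 301 (13.1-fold lower), and Exoc6 was lower. The other 4 lay between the 2-fold lines and below 0. Hps1 had a log2 ratio of -0.22 and Hps4 of -0.42. Rab27a and Unc13d, above the floor on the Control-siRNA array alone, had bounds of -0.80 and -0.39. The summed signal of endothelial markers was 625 against 15761 beside these values, and its part in them was not tested.

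Related GTPases gave other counts. Of 5 Rab-like genes that reached the floor, Ift27, of the intraflagellar transport train, was 3.43-fold higher, and Rabl2, Rabl3, Rabl6 and Ift22 lay between. Of 27 listed Arf and Arl genes, 16 had a probe set and 14 reached the floor. Of these 14, 1 was higher (Arf5, 3.51-fold) and none lower, with a median log2 ratio of 0.04. Over all genes, 16% were higher and 15.8% lower. As deposited, Arf6 (-1.13), Sar1b (-1.13) and Arfrp1 (-1.08) were past 2-fold lower, so the absence of lower genes rested on the scaling. No test of a difference between the families was made.

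**Figure D5:**
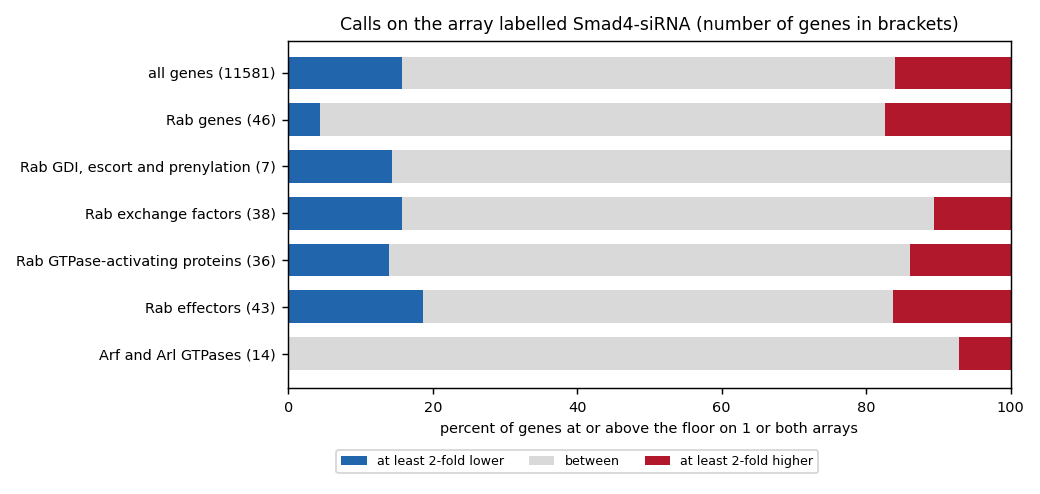
Percent of genes at least 2-fold lower, between, and at least 2-fold higher on the array labelled Smad4-siRNA, for all genes, Rab genes, their regulators and the Arf and Arl family. Numbers in brackets are genes that reached the floor on 1 or both arrays. Rab genes have 17.4% higher and 4.35% lower, and all genes 16% and 15.8%. As deposited, 15.2% of Rab genes and 19.8% of all genes are lower.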

How the data were processed

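The deposited values are probe set intensity on a linear scale from 2 Affymetrix arrays, and the submitters' processing notes name MAS5 as the tool. Its version and scaling are not stated in the labels, and a signal floor was used in place of detection calls. The groups came from the sample titles, 1 array each. Of 45101 probe sets, 64 controls were left out. The platform annotation, which can be old, gave 34945 probe sets exactly 1 gene, 932 several and 9160 none. Symbols were updated by Entrez identifier against RefSeq (GRCm38.p6), which held 18032 of the 18193 genes.

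The log2 intensities were quantile normalized with Python 3.11.15, numpy 2.4.6 and pandas 2.3.3. The trimmed means of the arrays as deposited were 114 and 138. Log2 ratios are Smad4-siRNA minus Control-siRNA, and a gene was called past 2-fold. No test between groups was made. Named were Rab genes past 2-fold, those with differing probe sets, the 5 of highest signal, paralogs, and up to 3 genes each way per list. Other list members, the motifs and the sequences shown were chosen after their values were seen. The members and lists were chosen with earlier results of these data known, and old symbols that the annotation lacks were then dropped. There were 9 alternatives, among them the values as deposited, median centring, a lowess trend (statsmodels 0.14.6, fraction 0.3), other floors and other probe set rules. Results for a further gene list are not reported here.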

Additional observations from a re-analysis of the deposited data

How the results depend on the processing

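The count of 8 higher Rab genes stayed within 6 to 10 under the alternatives, except with a floor at the 75th percentile, which left 3. The count of 2 lower genes was 7 for the values as deposited, 5 with centring on the median, 5 with a floor at the 25th percentile, 5 with a pseudocount, and 1 with a lowess trend removed. The median log2 ratio of Rab genes ran from -0.30 to 0.15. None of the 10 genes past 2-fold changed sign in any alternative that gave it a value. For Rab7b and Rab40b a bound cannot fall below 0 while only the Smad4-siRNA side reaches the floor. All alternatives used the same 2 arrays. Rab34 and Rab35 kept their call in all 9. Rab3a kept it in 4, Rab3d in 6 and Rab6a in 7. Rab7b lost it with a floor at the 75th percentile (log2 0.98), Rab40b with the median of probe sets (0.80) and Rab30 with a pseudocount (0.91). With a floor at the 75th percentile Rab3d lost it, and Rab30, Rab36 and Rab40b had no value. Rab15, with a suffixed probe set alone, had no value without such probe sets. Taking the median of probe sets moved 13 of 44 genes by more than the technical SD, and no other alternative moved over 5. No paired analysis was possible because each group had 1 array. For the same reason no array could be left out. Signal over background limits the ratios of dim genes such as Rab27a and Rab40b.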

Other observations

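Rab genes that lie near each other were compared by gene order. Rab7b and Rab29 are separated by 3 coding genes on chromosome 1. Rab7b was at least 11.04-fold higher, whereas Rab29 had a log2 ratio of 0.29. Between Rab43 and Rab7 on chromosome 6 lie 6 coding genes. The log2 ratios of Rab43 and Rab7 were 0.69 and -0.80, but other Rab43 probe sets had -0.23 and 0.07. Rab31 and Rab12 on chromosome 17, with 8 coding genes between them, had 0.67 and -0.25, whereas Rab38 and Rab30 on chromosome 7, with 18 between them, were both above 0, at 0.78 and 1.001. These are the 4 closest pairs of Rab genes by gene order, and no test was made.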
